A study of Mus musculus with 16 samples.

Results

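The mitochondrially encoded respiratory chain genes described here were 10 protein-coding genes of the mouse mitochondrial genome, out of 49585 genes in the count table. They were *mt-Nd1* to *mt-Nd6* of complex I, *mt-Cytb* of complex III, and *mt-Co1*, *mt-Co2* and *mt-Co3* of complex IV. The mitochondrial genome contributed 37 genes to the table, of which 13 were protein-coding, 22 were transfer RNAs and 2 were ribosomal RNAs. The 10 genes were picked from measured values of the same 4 groups that are compared here, so their values in the 4 group comparisons and in the interaction are given as a description, with no p-value for any of them. Counts of members past a threshold in the main fit of these comparisons stand beside the share of all tested genes. Counts under leave-outs stand without that share. Nothing is read from any of these counts because the choice of members bears on them.

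The study sequenced RNA from small-intestinal organoids of mice that lack or carry *Atg16l1*, an autophagy gene, in the gut epithelium. The question was how the loss of *Atg16l1* alters the epithelial response to the cytokine IL-22. *Atg16l1* ΔIEC organoids came from adult *Atg16l1* fl/fl mice that carried villin-Cre, which drives recombination in intestinal epithelial cells. *Atg16l1* fl/fl organoids came from littermates without Cre, and both genotypes were on a C57BL/6 background. Crypts were embedded in Matrigel and grown in a medium with EGF, Noggin and R-spondin 1, and were then left untreated or given IL-22 at 10 ng/ml. Each of the 4 groups (genotype by treatment) held 4 cultures. Within a genotype, 2 organoid lines each gave 2 untreated and 2 IL-22 cultures, so the organoid line was nested in genotype. In every list of 4 values that gives the cultures of 1 group, the first pair comes from the first line of that genotype and the second pair from the second line. The depth was 2135000 to 5574860 counts on genes per culture, with a median of 3499276.

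Mitochondria keep a small circular genome that encodes core subunits of the respiratory chain, while most subunits are encoded in the nucleus and imported. Both strands of this genome are transcribed as long RNAs, which are cut at transfer RNAs to release the ribosomal and messenger RNAs. Complex I takes electrons from NADH, complex III passes them from ubiquinol to cytochrome c, and complex IV hands them to oxygen, and the gut epithelium draws on this respiration for absorption, renewal and differentiation.

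*Atg16l1* itself (ENSMUSG00000026289) was measured in every culture. Its normalised level was given as CPM, the counts scaled to a common total of counts on tested genes after TMM scaling, and was 38.9, 31.6, 41.3 and 49.2 in untreated *Atg16l1* fl/fl cultures and 39.2, 40.0, 51.8 and 48.8 in those with IL-22. In *Atg16l1* ΔIEC cultures it was 2.59, 2.71, 1.21 and 4.15 without IL-22 and 0.810, 5.97, 0.302 and 0.289 with it. Each *Atg16l1* ΔIEC culture lay below each *Atg16l1* fl/fl culture. The edgeR log2 fold change was −3.90 ± 0.37 (SE) without IL-22 (adjusted p 1.273e-06, lower than every compared culture in 4 of 4 cultures) and −4.51 ± 0.38 with it (adjusted p 2.245e-07, lower in 4 of 4). The latter was −7.09 and −3.59 without the first and second *Atg16l1* ΔIEC line. These p-values, like all p-values between genotypes below, rest on the spread between cultures, of which each line gave several. With the cultures of a line summed, the untreated *Atg16l1* call was lost, at a log2 fold change of −3.92. Calls over all tested genes fell from 1226 of 12559 to 10 of 13871 between untreated genotypes and from 2481 to 188 between treated ones. Which exon was deleted, and where the remaining reads lie, is not given in the sources used here.

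The epithelial label was checked against marker genes. Of the 8 epithelial markers all were tested, and their summed level was 6240 to 11430 CPM over the 16 cultures, led by *Krt8* with a mean of 2983 CPM. Of 10 stromal markers none passed the filter on low counts, 8 never exceeded 3 counts in a culture (*Col1a1*, *Col1a2*, *Col3a1*, *Acta2*, *Pdgfra*, *Cdh5*, *Des* and *Dcn*), and the sum was 1.62 to 6.40 CPM, led by *Vim* with a mean of 1.72 CPM. Among immune markers, *Ptprc*, *Cd3e*, *Cd79a* and *Adgre1* never exceeded 3 counts in a culture, and the most abundant was *Cd14*, with a mean of 13.5 CPM.

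A copy of part of the mitochondrial genome lies in the nuclear genome and matches several members. The table holds counts of reads with a unique alignment, and 21.46 to 24.22% of the read records in each culture (median 23.19%) were set aside as not uniquely aligned. BLAST+ of each mitochondrial gene against all GENCODE transcripts (GRCm38) found 7 annotated pseudogenes with at least 99% identity side by side on the minus strand of chromosome 1, at chr1:24611535-24616197, a stretch of 4663 bases. *Gm28661* matched *mt-Co2* at 100% over 681 of 684 bases, *Gm28437* matched *mt-Co3* at 100% over 783 of 784, and *Gm28438* matched *mt-Nd3* at 99.71% over 345 of 348. Each of these 3 members was thus covered almost from end to end. *Gm28439* matched *mt-Nd4* at 100% over 876 of 1378 bases (63.6%), and *Gm29216* matched *mt-Co1* at 99.79% over 483 of 1545 bases (31.3%). *Gm10925* and *Gm10222* matched *mt-Atp6* and *mt-Nd4l*, which are not members, at 100% over 678 and 294 bases.

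Less similar copies lay elsewhere. On chromosome 2, *Gm13340* matched *mt-Co1* at 97.61% over 1545 bases, *Gm13341* matched *mt-Co2* at 95.91% over 684, and *Gm13339* matched *mt-Nd2* at 96.67% over 510. *Gm4076* on chromosome 13 matched *mt-Nd5* at 95.18% over 954 bases. No annotated transcript outside the mitochondrial genome matched *mt-Nd1*, *mt-Nd6* or *mt-Cytb* at 95% identity over 100 bases.

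The base differences between members and their near-identical copies were few. *Gm28438* differs from *mt-Nd3* by T3C, with positions counted from 1 at the 5′ end of the member gene, and *Gm29216* differs from the matched part of *mt-Co1* by A1066T. The first 63 bases of *mt-Nd3* (chrM:9459-9521, GRCm38) and of its copy are shown because the single difference, in capitals, is what separates them.

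mt-Nd3: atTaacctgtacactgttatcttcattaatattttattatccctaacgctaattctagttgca
Gm28438: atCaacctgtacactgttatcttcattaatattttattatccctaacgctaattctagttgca

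*mt-Co1* and *mt-Nd4* were each covered in part, and the stretches around the border of the match are shown because they mark where the copy ends. Capitals mark the stretch aligned to the chromosome 1 copy, which in *mt-Co1* holds the difference A1066T. Shown are *mt-Co1* from position 1003 to 1122 (chrM:6330-6449), where the match begins at position 1063, and *mt-Nd4* from position 817 to 936 (chrM:10983-11102), where it ends at position 876. The first 120 bases of *mt-Co2* (chrM:7013-7132) match along their whole length.

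mt-Co1: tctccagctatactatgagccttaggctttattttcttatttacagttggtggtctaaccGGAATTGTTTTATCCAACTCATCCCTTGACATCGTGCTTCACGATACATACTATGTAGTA
mt-Nd4: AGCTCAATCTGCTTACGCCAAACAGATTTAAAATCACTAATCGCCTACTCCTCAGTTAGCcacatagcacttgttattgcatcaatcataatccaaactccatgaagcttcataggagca
mt-Co2: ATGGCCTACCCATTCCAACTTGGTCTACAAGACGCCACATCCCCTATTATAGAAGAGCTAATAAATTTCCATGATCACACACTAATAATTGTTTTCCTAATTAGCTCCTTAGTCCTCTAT

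The 3 members covered almost whole by a near-identical copy had almost no counts. *mt-Nd3*, a membrane subunit of complex I, had 5, 11, 5 and 8 counts in untreated *Atg16l1* fl/fl cultures, 2, 10, 11 and 7 with IL-22, 5, 11, 8 and 2 in untreated *Atg16l1* ΔIEC cultures, and 9, 2, 7 and 5 with IL-22. *mt-Co2*, which carries the copper site that receives electrons from cytochrome c, had 1, 3, 1 and 3 counts, then 3, 2, 6 and 0, then 1, 1, 1 and 1, and then 1, 1, 0 and 3, in the same order of groups. *mt-Co3*, a core subunit of complex IV without a metal site, had 2, 4, 10 and 4 counts, then 3, 8, 9 and 13, then 3, 2, 2 and 3, and then 4, 0, 2 and 5. The groups overlapped for all 3 genes, and differences between groups were not tested at these counts.

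These 3 members did not pass the filter on low counts, so 7 of the 10 were tested, among 12559 tested genes. *mt-Nd4l* (0 to 1 count) and *mt-Atp6* (0 to 14 counts), the other protein-coding genes with such copies, were at the same level. Counts on the copies themselves were also low, with 0 to 26 on *Gm28661*, 2 to 23 on *Gm28437*, 0 to 4 on *Gm28438*, 0 to 9 on *Gm28439* and 2 to 23 on *Gm29216*. *Gm13340* had 6 to 40 counts. Whether the reads set aside as not uniquely aligned hold reads of *mt-Nd3*, *mt-Co2* and *mt-Co3* was not tested, since the table does not say where those reads align.

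**Figure D1:**
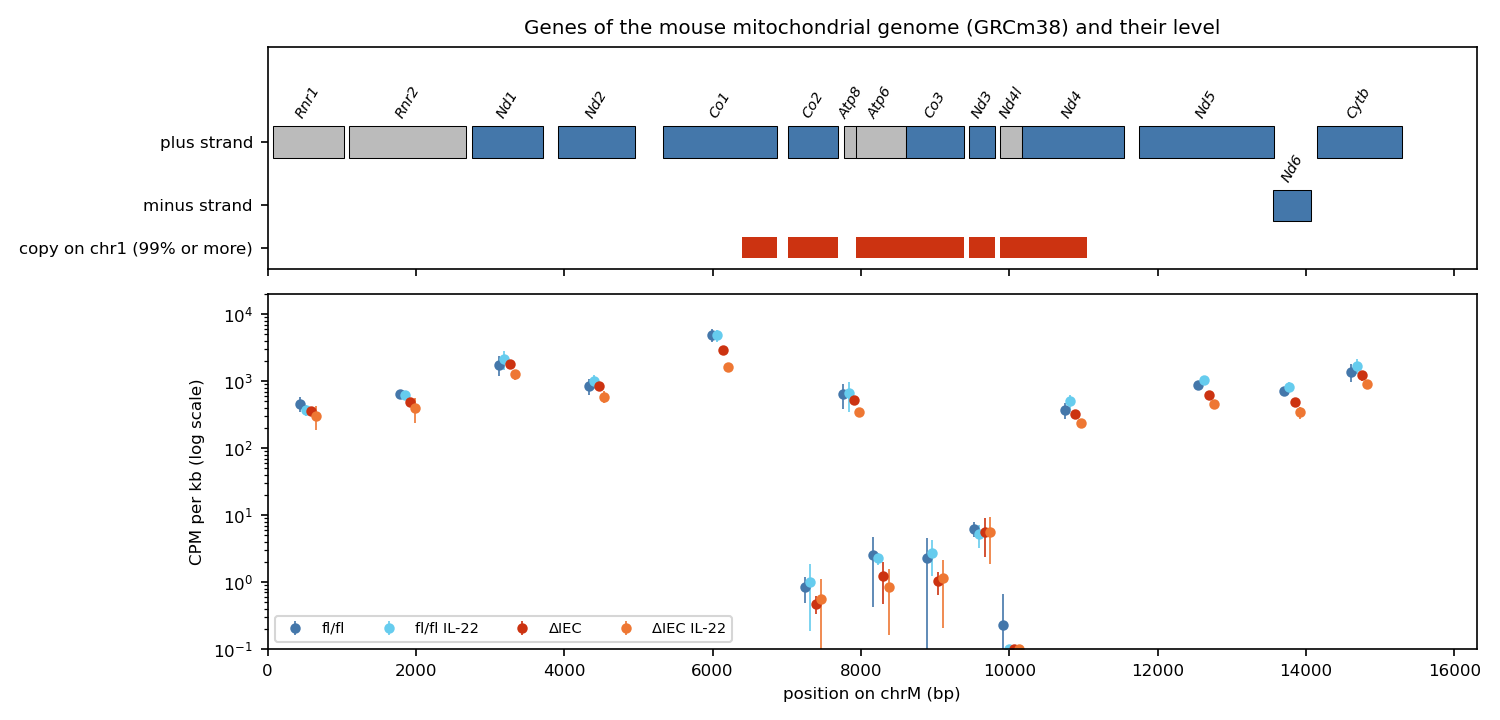
The upper panel draws the ribosomal RNA and protein-coding genes of the mitochondrial genome to scale by position on chrM (bp, GRCm38), with stretches that match the chromosome 1 copies at 99% identity or more in red. The lower panel gives the mean level of each gene in CPM per kb of gene (log axis, bars are SD, n = 4 cultures per group, values under 0.1 drawn at 0.1), and the genes covered almost whole in red sit far below their neighbours.

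Among the 7 members that could be measured, levels were compared per kb of gene. *mt-Co1*, the subunit that reduces oxygen, had the highest mean, at 4941 CPM per kb in untreated *Atg16l1* fl/fl cultures, 4886 with IL-22, 2879 in untreated *Atg16l1* ΔIEC cultures and 1624 with IL-22. Divided by the bases outside its near-identical copy, these means were 7189, 7108, 4188 and 2363. *mt-Nd1* followed with 1773, 2152, 1787 and 1266 CPM per kb in the same order of groups.

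*mt-Cytb* had mean levels of 1393, 1700, 1232 and 919 CPM per kb, and *mt-Nd5* had 887, 1043, 631 and 460. *mt-Nd2* was at 847, 996, 835 and 591 CPM per kb. *mt-Nd6*, the only member on the minus strand of the reference, was at 706, 835, 498 and 344. *mt-Nd4* had the lowest level of the 7 over its whole length, at 373, 499, 327 and 238 CPM per kb, and 1023, 1369, 898 and 653 over the bases outside its copy.

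Complex I members come next, gene by gene. *mt-Nd1* (ENSMUSG00000064341, chrM:2751-3707) encodes a membrane subunit that forms part of the ubiquinone-binding chamber. Its level was 1286, 1133, 2112 and 2256 CPM in untreated *Atg16l1* fl/fl cultures and 1490, 1572, 2271 and 2907 with IL-22. With *Atg16l1* deleted, it was 1863, 1598, 1491 and 1887 CPM without IL-22 and 1446, 1063, 1348 and 992 with it. The untreated *Atg16l1* ΔIEC values lay between those of the untreated *Atg16l1* fl/fl lines, while the IL-22 values of *Atg16l1* ΔIEC lay below all untreated values of that genotype and below all IL-22 values of *Atg16l1* fl/fl. Group means ± SD (n = 4) were 1697 ± 569, 2060 ± 665, 1710 ± 196 and 1212 ± 219 CPM, and neighbours in the order of the means differed by less than the larger of their SDs. The log2 fold change of *mt-Nd1* was 0.28 ± 0.21 (SE, edgeR) for IL-22 in *Atg16l1* fl/fl, −0.50 ± 0.21 for IL-22 in *Atg16l1* ΔIEC, 0.01 ± 0.21 for *Atg16l1* ΔIEC against *Atg16l1* fl/fl without IL-22 and −0.77 ± 0.21 with it. The interaction, which is the IL-22 effect in *Atg16l1* ΔIEC minus that in *Atg16l1* fl/fl, was −0.78 ± 0.30. In bulk RNA, fewer cells of a type and less RNA per cell cannot be told apart.

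*mt-Nd2* (ENSMUSG00000064345, chrM:3914-4951) encodes one of the antiporter-like subunits of the membrane arm. Its level was 752, 624, 1013 and 1129 CPM in untreated *Atg16l1* fl/fl cultures and 789, 890.0, 1106 and 1351 with IL-22. In *Atg16l1* ΔIEC cultures it was 961, 818, 783 and 907 CPM without IL-22 and 773, 542, 626 and 513 with it. As for *mt-Nd1*, the untreated *Atg16l1* ΔIEC values lay between those of the *Atg16l1* fl/fl lines, and the IL-22 values of *Atg16l1* ΔIEC lay below both groups they were compared with. Group means ± SD were 880 ± 232, 1034 ± 250, 867 ± 81.6 and 614 ± 117 CPM, and only the step from 867 to 614 exceeded the larger SD of its pair. *mt-Nd2* log2 fold changes were 0.23 ± 0.17 for IL-22 in *Atg16l1* fl/fl, −0.50 ± 0.18 for IL-22 in *Atg16l1* ΔIEC, −0.02 ± 0.17 between genotypes without IL-22 and −0.75 ± 0.18 with it, and the interaction was −0.73 ± 0.25.

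*mt-Nd4* (ENSMUSG00000064363, chrM:10167-11544) encodes another antiporter-like subunit. Its level was 444, 362, 607 and 640 CPM in untreated *Atg16l1* fl/fl cultures and 527, 582, 719 and 922 with IL-22. With *Atg16l1* deleted, it was 538, 394, 414 and 456 CPM without IL-22 and 367, 308, 347 and 289 with it. The untreated genotypes overlapped, and the IL-22 values of *Atg16l1* ΔIEC lay below both comparison groups. Means ± SD of the groups were 514 ± 132, 687 ± 176, 451 ± 63.7 and 328 ± 35.8 CPM, with only the lowest step, from 451 to 328, larger than both SDs. *mt-Nd4* log2 fold changes were 0.42 ± 0.17 for IL-22 in *Atg16l1* fl/fl, −0.46 ± 0.17 for IL-22 in *Atg16l1* ΔIEC, −0.19 ± 0.17 between genotypes without IL-22 and −1.07 ± 0.17 with it, and the interaction was −0.88 ± 0.24.

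*mt-Nd5* (ENSMUSG00000064367, chrM:11742-13565) encodes the antiporter-like subunit at the far end of the membrane arm. Its level was 1483, 1387, 1681 and 1924 CPM in untreated *Atg16l1* fl/fl cultures and 1672, 1781, 1909 and 2251 with IL-22. In *Atg16l1* ΔIEC cultures it was 1329, 1073, 1089 and 1115 CPM without IL-22 and 1006, 753, 836 and 759 with it. Here the genotypes did not overlap with or without IL-22, and within *Atg16l1* ΔIEC the treated cultures lay below the untreated ones. Group means ± SD were 1619 ± 238, 1903 ± 251, 1151 ± 120 and 838 ± 118 CPM, and each step in the order of the means exceeded both SDs of its pair, although single values of the 2 *Atg16l1* fl/fl groups overlapped. *mt-Nd5* log2 fold changes were 0.23 ± 0.12 for IL-22 in *Atg16l1* fl/fl, −0.46 ± 0.12 for IL-22 in *Atg16l1* ΔIEC, −0.49 ± 0.12 between genotypes without IL-22 and −1.18 ± 0.12 with it, and the interaction was −0.69 ± 0.17.

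*mt-Nd6* (ENSMUSG00000064368, chrM:13552-14070) encodes a membrane subunit of complex I. The strand setting of the counting is not given in the sources used here, so whether its counts hold reads of the other strand cannot be told. Its level was 363, 331, 389 and 383 CPM in untreated *Atg16l1* fl/fl cultures and 359, 423, 415 and 537 with IL-22. With *Atg16l1* deleted, it was 283, 238, 245 and 268 CPM without IL-22 and 223, 134, 187 and 170.4 with it. Both *Atg16l1* ΔIEC groups lay below their *Atg16l1* fl/fl counterparts without overlap, and so did IL-22 against untreated *Atg16l1* ΔIEC cultures. Means ± SD of the groups were 367 ± 26.0, 433 ± 74.8, 259 ± 20.8 and 179 ± 37.0 CPM, and all steps except that between the *Atg16l1* fl/fl groups exceeded both SDs. *mt-Nd6* log2 fold changes were 0.24 ± 0.13 for IL-22 in *Atg16l1* fl/fl, −0.54 ± 0.13 for IL-22 in *Atg16l1* ΔIEC, −0.50 ± 0.13 between genotypes without IL-22 and −1.28 ± 0.13 with it, and the interaction was −0.78 ± 0.18.

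The complex III member is *mt-Cytb* (ENSMUSG00000064370, chrM:14145-15288), which encodes cytochrome b, the subunit that oxidises ubiquinol. Its level was 1266, 1090.0, 1901 and 2117 CPM in untreated *Atg16l1* fl/fl cultures and 1479, 1687, 2025 and 2587 with IL-22. In *Atg16l1* ΔIEC cultures it was 1756, 1213, 1291 and 1378 CPM without IL-22 and 1215, 989, 1025 and 976 with it. The untreated genotypes overlapped, treated and untreated *Atg16l1* ΔIEC cultures overlapped narrowly (1215 against 1213), and the treated *Atg16l1* ΔIEC cultures lay below the treated *Atg16l1* fl/fl ones. Group means ± SD were 1593 ± 493, 1944 ± 484, 1409 ± 241 and 1051 ± 111 CPM, with only the lowest step larger than both SDs. *mt-Cytb* log2 fold changes were 0.29 ± 0.19 for IL-22 in *Atg16l1* fl/fl, −0.42 ± 0.19 for IL-22 in *Atg16l1* ΔIEC, −0.18 ± 0.19 between genotypes without IL-22 and −0.89 ± 0.19 with it, and the interaction was −0.71 ± 0.26.

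The measured complex IV member is *mt-Co1* (ENSMUSG00000064351, chrM:5328-6872). Its level was 6679, 6230, 7690 and 9940 CPM in untreated *Atg16l1* fl/fl cultures and 5893, 6666, 8423 and 9213 with IL-22. With *Atg16l1* deleted, it was 4812, 4312, 4070 and 4596 CPM without IL-22 and 2589, 2144, 2899 and 2404 with it. Every *Atg16l1* ΔIEC value lay below every *Atg16l1* fl/fl value, the treated *Atg16l1* ΔIEC cultures lay below the untreated ones, and the *Atg16l1* fl/fl groups overlapped. Means ± SD of the groups were 7634 ± 1654, 7549 ± 1533, 4448 ± 325 and 2509 ± 318 CPM, and both steps below the *Atg16l1* fl/fl groups exceeded the SDs of their pair. *mt-Co1* log2 fold changes were −0.02 ± 0.14 for IL-22 in *Atg16l1* fl/fl, −0.83 ± 0.14 for IL-22 in *Atg16l1* ΔIEC, −0.78 ± 0.14 between genotypes without IL-22 and −1.59 ± 0.15 with it, and the interaction was −0.81 ± 0.20.

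**Figure D2:**
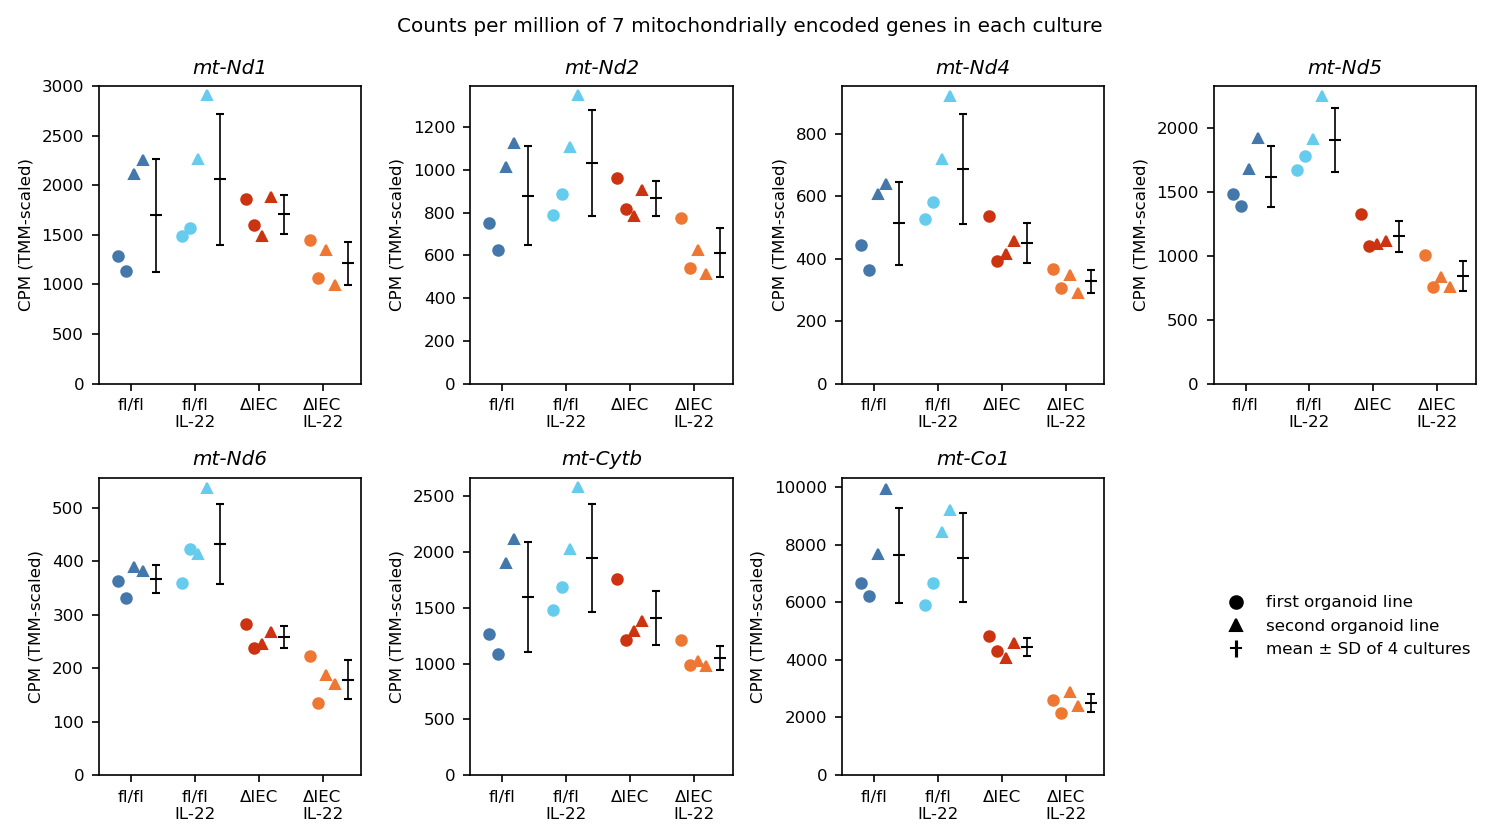
Each panel plots 1 member in CPM (vertical axis, from 0) for the 16 cultures by group. Circles are cultures of the first organoid line of the genotype, triangles those of the second, and bars are mean ± SD of 4 cultures. The treated *Atg16l1* ΔIEC group has the lowest mean for each gene, and in *Atg16l1* fl/fl the triangles sit mostly above the circles.

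Across the 7 measured members, the group comparisons can be put side by side, although they share samples: each group of cultures enters 2 of the 4 comparisons, and the interaction uses all of them. A gene was called past the threshold at an adjusted p under 0.01 in edgeR. For IL-22 in *Atg16l1* fl/fl, 0 of 7 members were called by edgeR (1 had an unadjusted p under 0.05, and DESeq2 called 0), where 20.8% of all tested genes were called in either direction. The median log2 fold change of the members was 0.24, against −0.05 for all tested genes, and 6 of 7 were above 0. Over leave-outs the median ran from 0.12 to 0.38. *mt-Nd1* ran from 0.07 to 0.45, *mt-Nd2* from 0.08 to 0.38 and *mt-Co1* from −0.13 to 0.14, while every member but *mt-Co1* stayed above 0.

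For IL-22 in *Atg16l1* ΔIEC, 3 members (*mt-Co1*, *mt-Nd5* and *mt-Nd6*) were called lower, where 7.65% of all tested genes were called lower, and nothing is read from this count because the members were picked on these values. The median was −0.50, against −0.01 for all tested genes. All members but *mt-Cytb*, 6 of 7, had treated cultures below untreated ones without overlap, as did 13.2% of all tested genes. The count was 1 without *Atg16l1* ΔIEC untreated culture 1 or 4 or IL-22 culture 2 or 4, 1 without the second *Atg16l1* ΔIEC line, 0 without the first, and 7 without either *Atg16l1* fl/fl line. For this comparison and those between genotypes, the share of all tested genes under leave-outs is not given. The leave-out counts are therefore not set against all genes.

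For *Atg16l1* ΔIEC against *Atg16l1* fl/fl without IL-22, the same 3 members were called lower, where 5.98% of all tested genes were, and again nothing is read from the count. The median was −0.19, against −0.02 for all tested genes, and the same 3 members did not overlap between genotypes, as did 12.6% of all tested genes in that direction. The count fell to 1 without *Atg16l1* fl/fl untreated culture 3 or 4, without *Atg16l1* ΔIEC untreated culture 2, 3 or 4, or without the second *Atg16l1* fl/fl line, and to 0 without either *Atg16l1* ΔIEC line. The median moved to −0.51 without the first *Atg16l1* fl/fl line and to 0.16 without the second. Without that second line, log2 fold changes were 0.50 for *mt-Nd1*, 0.33 for *mt-Nd2*, 0.16 for *mt-Nd4* and 0.26 for *mt-Cytb* (−0.51 without the first), while *mt-Nd5* (−0.32), *mt-Nd6* (−0.42) and *mt-Co1* (−0.54) kept their sign.

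For *Atg16l1* ΔIEC against *Atg16l1* fl/fl with IL-22, all 7 were called lower, where 9.84% of all tested genes were. DESeq2 called 6, and 2555 of 12559 tested genes in either direction. Nothing is read from these counts. The median was −1.07, against 0.01 for all tested genes, and all 7 did not overlap between genotypes, as did 14.2% of all tested genes in that direction. The count was 4 without either *Atg16l1* ΔIEC line, and the median was −1.34 without the first *Atg16l1* fl/fl line and −0.76 without the second. Without that second line, log2 fold changes were −0.34 for *mt-Nd1*, −0.45 for *mt-Nd2*, −0.76 for *mt-Nd4* and −1.32 for *mt-Co1*, and without the first that of *mt-Co1* was −1.84.

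In the interaction, edgeR called 0 of 7 members, while 7 had an unadjusted p under 0.05 and DESeq2 called 2 (*mt-Nd5* and *mt-Nd6*). Nothing is read from these counts, because the members were picked on these values. Of all tested genes edgeR called 0.0159%, which is 2 genes, and DESeq2 called 0.0876%, which is 11 genes. The median log2 value of the members was −0.78, against 0.03 for all tested genes.

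Pairing by organoid line changed these counts. With organoid line as replicate block in edgeR, 2 members (*mt-Cytb* and *mt-Nd4*) were called higher for IL-22 in *Atg16l1* fl/fl, where 30.6% of all tested genes were called in either direction. The block called 7 members lower for IL-22 in *Atg16l1* ΔIEC, where 25.5% of all tested genes were called, and 7 lower in the interaction, where 0.446% (56 genes) were. With the cultures of a line summed, edgeR called 0 members for IL-22 in *Atg16l1* fl/fl and 0 in *Atg16l1* ΔIEC, where 543 and 635 of 13871 tested genes were called. In the interaction summing left 0 members and 0 of 13871 tested genes called. Nothing is read from these counts either. By line, the log2 difference between IL-22 and untreated cultures ran from −0.04 to 0.46 over the 7 members in the first *Atg16l1* fl/fl line, with 6 above 0, and from 0.01 to 0.38 in the second. In *Atg16l1* ΔIEC it ran from −0.95 to −0.41 in the first line and from −0.71 to −0.42 in the second.

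**Figure D3:**
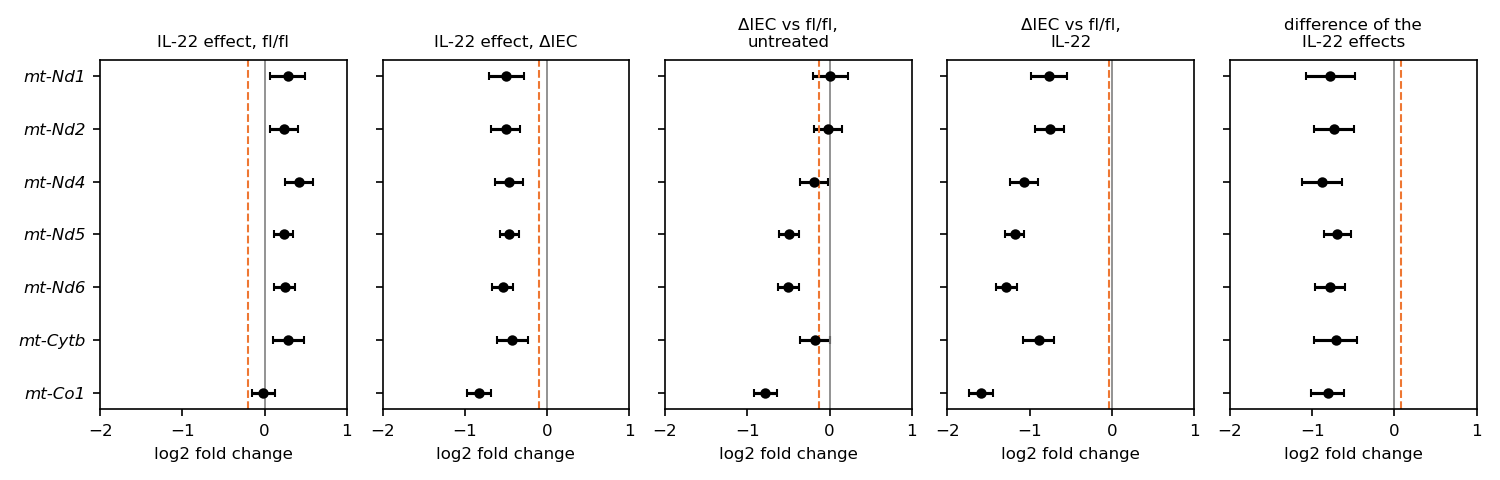
Points are edgeR log2 fold changes of the 7 measured members in the 4 group comparisons and the interaction, bars are ± SE, and the dashed line is the median of the 78 tested nuclear-encoded subunits. The members lie between −0.02 and 0.42 for IL-22 in *Atg16l1* fl/fl and between −1.59 and −0.75 between genotypes with IL-22.

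The rule that picked the members compared the 4 groups and not the organoid lines within a genotype, so the line difference was tested. The members were chosen with earlier results of these same cultures known, so these p-values may not be independent of that choice. In *Atg16l1* fl/fl, 6 of 7 members were called higher in the second line than in the first by edgeR, where 12.1% of all tested genes were called in either direction. DESeq2 called 5 members, and 973 of 12559 tested genes in either direction. The largest difference was that of *mt-Nd1*, with a log2 fold change of 0.81 ± 0.09 (adjusted p 1.02e-07), and its 4 cultures of the second line lay above the 4 of the first. *mt-Cytb* (0.66 ± 0.09, adjusted p 1.536e-06), *mt-Nd4* (0.60 ± 0.09, adjusted p 6.38e-06), *mt-Nd2* (0.59 ± 0.09, adjusted p 1.1e-05) and *mt-Co1* (0.47 ± 0.08, adjusted p 2.707e-05) were likewise higher in 4 of 4 cultures. *mt-Nd5* differed by 0.30 ± 0.08 (adjusted p 0.005525) with overlapping lines, and this call was lost in 6 of the 16 fits that left out a culture (*Atg16l1* fl/fl untreated culture 1, 2 or 4, or treated culture 1, 2 or 4), with values of 0.24 to 0.32. *mt-Nd6* missed the threshold, at 0.21 ± 0.09 (adjusted p 0.107). The lines did not overlap for 5 members, where 5.96% of all tested genes were higher without overlap. The median was 0.59, against −0.01 for all tested genes.

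In *Atg16l1* ΔIEC, edgeR called 0 of 7 members between lines (0 had an unadjusted p under 0.05, and DESeq2 called 0), where 4.35% of all tested genes were called. DESeq2 called 426 of 12559 tested genes there. Log2 fold changes ran from −0.15 for *mt-Cytb* (adjusted p 0.369) to 0.05 for *mt-Co1* (adjusted p 0.801), with a median of −0.09, and the 95% intervals of the 7 members together spanned −0.32 to 0.20. Whether the line difference itself differed between genotypes was not tested. These p-values measure the spread between cultures of these lines only, not between mice.

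The SD of the mean log2 CPM of the 7 members was 0.259 within groups and 0.180 within line and treatment. Over the 16 cultures the 21 pairs of measured members had Pearson correlations of 0.721 to 0.982, with a median of 0.889, as a description across cultures that share group and line.

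Another RNA feature moved with the *Atg16l1* fl/fl lines. *Neat1*, a nuclear-retained RNA, was at 146, 117, 510 and 773 CPM in untreated *Atg16l1* fl/fl cultures, 173, 204, 1135 and 1403 with IL-22, 71.9, 94.0, 87.3 and 143 in untreated *Atg16l1* ΔIEC cultures, and 99.2, 87.5, 158 and 97.5 with IL-22. *Malat1* was at 58.2, 88.6, 128 and 142 CPM, then 68.9, 66.8, 233 and 287, then 40.6, 35.4, 39.8 and 39.9, and then 41.7, 30.1, 50.5 and 51.5, in the same order of groups. The second *Atg16l1* fl/fl line was high for both. Between *Atg16l1* fl/fl lines edgeR gave a log2 fold change of 2.52 ± 0.13 for *Neat1* (adjusted p 1.153e-15) and 1.41 ± 0.10 for *Malat1* (adjusted p 1.166e-12), each higher in 4 of 4 cultures. *Xist* was higher by 0.80 ± 0.07 (adjusted p 1.107e-09, 4 of 4).

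Of the 4 tested nuclear-retained RNAs, 3 were called higher in the second *Atg16l1* fl/fl line and 0 between *Atg16l1* ΔIEC lines (2 at an unadjusted p under 0.05, 0 by DESeq2). Between genotypes, 3 were called lower in *Atg16l1* ΔIEC with IL-22 (*Neat1* at −2.72 ± 0.61, *Malat1* at −1.93 ± 0.38 and *Xist* at −0.75 ± 0.20, with adjusted p 0.002309, 0.0008234 and 0.007093) and 0 without it (3 at an unadjusted p under 0.05, 0 by DESeq2). Each of these 3 was lower in 4 of 4 cultures, but the call was lost for *Neat1* without treated *Atg16l1* ΔIEC culture 2, either *Atg16l1* ΔIEC line or the second *Atg16l1* fl/fl line, for *Malat1* without the first *Atg16l1* ΔIEC or second *Atg16l1* fl/fl line, and for *Xist* in 8 of 20 leave-outs. For IL-22, *Kcnq1ot1* was the only one called, at −0.58 ± 0.10 in *Atg16l1* fl/fl (adjusted p 0.0002034, lower in 4 of 4) and −0.67 ± 0.11 in *Atg16l1* ΔIEC (adjusted p 7.044e-05, lower in 4 of 4). With organoid line as replicate block, 3 and 2 of the 4 RNAs were called. The share of read records on no gene was 38.02 to 40.08% per culture, with a median of 38.69%. In *Atg16l1* fl/fl it was 38.81, 38.70, 38.12 and 38.16% in the cultures of the first line and 40.08, 39.60, 39.28 and 39.62% in those of the second, which lay above the first without overlap. In *Atg16l1* ΔIEC it was 38.25, 38.24, 38.67 and 38.19% in the first line and 39.41, 38.82, 38.02 and 38.65% in the second, with overlap. The part of nuclear RNA or RNA quality in the members' differences was not tested.

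The makeup of the members' counts differed between groups. The 10 members took 1.21, 1.09, 1.59 and 1.87% of counts on genes in untreated *Atg16l1* fl/fl cultures and 1.14, 1.26, 1.61 and 1.92% with IL-22. In *Atg16l1* ΔIEC cultures they took 1.23, 1.02, 0.994 and 1.13% without IL-22 and 0.731, 0.586, 0.714 and 0.600% with it. The treated *Atg16l1* ΔIEC cultures were thus lowest, without overlap with any other group. Means ± SD (n = 4) were 1.44 ± 0.360%, 1.48 ± 0.353%, 1.09 ± 0.109% and 0.658 ± 0.0755%, and the widest 95% Wilson interval of a culture reached 0.0168 percentage points to either side, which covers counting error only. All 37 genes of the mitochondrial genome took 1.61, 1.63, 1.23 and 0.758% on average.

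*mt-Co1* made up 54.4, 55.8, 49.9 and 54.0% of the members' counts in untreated *Atg16l1* fl/fl cultures and 48.3, 49.0, 49.9 and 46.6% with IL-22. In *Atg16l1* ΔIEC cultures it made up 41.7, 44.7, 43.4 and 43.3% without IL-22 and 34.0, 36.1, 39.9 and 39.4% with it. The share was lower in each *Atg16l1* ΔIEC culture than in each *Atg16l1* fl/fl culture. Within both genotypes it was lower with IL-22 than without, with no overlap. In *Atg16l1* fl/fl the groups were narrowly apart (at most 49.92% with IL-22, at least 49.93% without). Means ± SD were 53.6 ± 2.53%, 48.4 ± 1.41%, 43.3 ± 1.23% and 37.3 ± 2.80%. The mean share of *mt-Nd1* was 11.7, 13.0, 16.6 and 17.9% in the same order. Because shares and ratios within a culture do not depend on the scaling between cultures, the ratio of *mt-Co1* to *mt-Nd1* counts gives the unequal change directly, with means ± SD of 4.69 ± 0.835, 3.77 ± 0.455, 2.61 ± 0.134 and 2.10 ± 0.265. In untreated *Atg16l1* fl/fl it was 5.20 and 5.50 in the first line and 3.64 and 4.41 in the second. The ratio of *mt-Nd5* to *mt-Nd1* had means ± SD of 1.01 ± 0.213, 0.968 ± 0.187, 0.676 ± 0.0623 and 0.698 ± 0.0596. The *Atg16l1* fl/fl lines stood apart here, with 1.15, 1.22, 1.12 and 1.13 in the first line. The second line had 0.796, 0.853, 0.841 and 0.774, near the highest *Atg16l1* ΔIEC culture at 0.765.

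The other genes of the mitochondrial genome were not among the picked members and were tested, where they passed the filter. They are transcribed on long RNAs together with members, so their p-values may not be independent of the choice of members. *mt-Tp*, the proline transfer RNA, was at 88.0, 50.02, 81.6 and 96.6 CPM in untreated *Atg16l1* fl/fl cultures, 75.2, 67.3, 77.3 and 77.9 with IL-22, 35.4, 32.0, 41.8 and 32.4 in untreated *Atg16l1* ΔIEC cultures, and 26.7, 19.6, 30.2 and 22.6 with IL-22. The genotypes did not overlap. The edgeR log2 fold change between genotypes was −1.16 ± 0.16 without IL-22 (adjusted p 8.975e-05, lower in 4 of 4 cultures) and −1.59 ± 0.17 with it (adjusted p 2.591e-06, lower in 4 of 4). IL-22 against untreated in *Atg16l1* ΔIEC gave −0.51 ± 0.18 (adjusted p 0.0425), with groups apart, and missed the threshold. It was past the threshold with organoid line as replicate block (−0.53), with no filter on low counts (−0.51), and without *Atg16l1* fl/fl untreated culture 2 (−0.51) or the first *Atg16l1* fl/fl line (−0.51). Leaving out the 2 cultures high in *Gm42418*, an alternative chosen after seeing the data, also moved it past the threshold (−0.54). With the cultures of a line summed, the IL-22 effect in *Atg16l1* ΔIEC did not move past the threshold. Summing also lost the untreated genotype call of *mt-Tp*, at a log2 fold change of −1.16, and kept the treated one. *mt-Tt* was the only other tested transfer RNA, and no comparison called it (smallest edgeR adjusted p 0.624).

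*mt-Atp8*, which encodes a subunit of ATP synthase, was at 88.8, 84.5, 177 and 184 CPM in untreated *Atg16l1* fl/fl cultures, 88.7, 83.0, 147 and 225 with IL-22, 103, 108, 101 and 124 in untreated *Atg16l1* ΔIEC cultures, and 70.1, 72.7, 67.4 and 72.9 with IL-22. For IL-22 in *Atg16l1* ΔIEC its groups did not overlap, and the edgeR log2 fold change of −0.62 ± 0.28 missed the threshold (adjusted p 0.105). That effect was past the threshold with organoid line as replicate block (−0.62), but not with the cultures of a line summed. Between genotypes with IL-22 its groups did not overlap, and the log2 fold change of −0.94 ± 0.27 missed the threshold (adjusted p 0.0119). It was past the threshold without *Atg16l1* fl/fl untreated culture 1, 2 or 4 (−0.94 each), without *Atg16l1* fl/fl treated culture 1 (−1.09) or 2 (−1.13) or the first *Atg16l1* fl/fl line (−1.41), and with no filter on low counts (−0.92). It shrank to −0.60 without *Atg16l1* fl/fl treated culture 4 and to −0.27 without the second *Atg16l1* fl/fl line. Between *Atg16l1* fl/fl lines it was higher in the second, by 1.08 ± 0.09 (adjusted p 2.222e-10, 4 of 4 cultures).

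The ribosomal RNA *mt-Rnr2* was at 965, 907, 923 and 1262 CPM in untreated *Atg16l1* fl/fl cultures, 859, 969, 1011 and 1169 with IL-22, 805, 771, 759 and 744 in untreated *Atg16l1* ΔIEC cultures, and 1025, 540, 532 and 458 with IL-22. Treated *Atg16l1* ΔIEC culture 1 stood above the other 3 and overlapped with treated *Atg16l1* fl/fl cultures. The log2 fold change between genotypes with IL-22 was −0.65 ± 0.18 (adjusted p 0.008952, lower in 3 of 4 cultures), and without that culture it was −0.97. It was −1.02 without the first *Atg16l1* ΔIEC line and −0.38 without the second. The call was lost in 14 of 20 fits that left out a culture or a line, with values of −0.67 to −0.38, and it was kept in the 6 fits without *Atg16l1* fl/fl untreated culture 2 or 4, without IL-22 culture 1 of either genotype, or without the first line of either genotype. *mt-Rnr1* was called in no comparison when all cultures and the filter were used, and came nearest between *Atg16l1* fl/fl lines, at 0.42 ± 0.13 (adjusted p 0.0174), which was past the threshold without *Atg16l1* fl/fl untreated culture 3 (0.54) or *Atg16l1* ΔIEC treated culture 1 (0.42) or 2 (0.42), without the 2 cultures high in *Gm42418* (0.39), and with no filter on low counts (0.40).

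Of the 4 tested genes on the list of nuclear copies, 1 (*Gm29216*) was called lower between genotypes with IL-22 (−1.95 ± 0.54, adjusted p 0.008772, lower in 4 of 4 cultures), on 2 to 23 counts. That call held in 6 of 20 leave-outs. *Gm13340*, found by the sequence search, was also lower (−1.48 ± 0.34, adjusted p 0.002811, lower in 4 of 4), which held in 15 of 20 leave-outs. *Gm28661* was higher in the second *Atg16l1* fl/fl line (1.63 ± 0.33, adjusted p 0.0005217, 4 of 4). Reads counted on these genes come from sequence that is nearly the same as *mt-Co1* or *mt-Co2*, so their source in either genome cannot be told apart from these counts.

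Nuclear-encoded subunits of the respiratory chain and ATP synthase were compared as a list, with 78 tested (36 of complex I, 4 of II, 9 of III, 12 of IV and 17 of V). For IL-22 in *Atg16l1* fl/fl, 10 were called lower by edgeR and 0 higher, where 20.8% of all tested genes were called in either direction. The median log2 fold change was −0.20, against −0.05 for all tested genes. In *Atg16l1* ΔIEC with IL-22, 2 were lower, with a median of −0.10. With organoid line as replicate block these counts were 27 and 8. Calls over all 12559 tested genes also rose with the block, from 2608 to 3837 in *Atg16l1* fl/fl and from 2195 to 3198 in *Atg16l1* ΔIEC. The rise is therefore not read as particular to this list. Between genotypes, 6 were lower without IL-22 (median −0.13) and 5 with it (median −0.04, against −1.07 for the mitochondrially encoded members). Over all 12559 tested genes, 1226 and 2481 were called in either direction. The interaction called 0 of 78 by edgeR (3 at an unadjusted p under 0.05, 0 by DESeq2, 0 with the block), with a median of 0.08. Between lines, 20 were lower in the second *Atg16l1* fl/fl line (median −0.20) and 3 in the second *Atg16l1* ΔIEC line (median −0.10). In these comparisons 12.1% and 4.35% of all tested genes were called in either direction. Between *Atg16l1* fl/fl lines the members of the mitochondrial genome had a median of 0.59, with the opposite sign. The difference between the lists was not tested. For *Cox7a1* and the other nuclear genes called between groups and given below with an adjusted p, all 4 cultures lay beyond all 4 of the compared group unless overlap is stated.

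*Cox7a1*, a nuclear-encoded complex IV subunit, was called in each of the 4 group comparisons. Its mean level was 59.0, 30.7, 25.9 and 9.65 CPM in the 4 groups. Its log2 fold change was −0.95 ± 0.12 for IL-22 in *Atg16l1* fl/fl (adjusted p 5.274e-06) and −1.43 ± 0.15 in *Atg16l1* ΔIEC (adjusted p 7.706e-07), and between genotypes −1.20 ± 0.12 without IL-22 (adjusted p 3.648e-06) and −1.68 ± 0.15 with it (adjusted p 4.173e-07). These calls held in 20 of 20 leave-outs. *Ndufs3* and *Ndufa6*, of complex I, were lower in *Atg16l1* ΔIEC without IL-22 (−0.72 ± 0.10 and −0.73 ± 0.11, adjusted p 0.0001043 and 0.00018) and with it (−0.85 ± 0.11 and −0.78 ± 0.11, adjusted p 1.228e-05 and 4.494e-05).

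The machinery that makes, processes and translates mitochondrial RNA was compared in the same way. *Tfam*, which packages mitochondrial DNA and starts its transcription, was lower with IL-22 in *Atg16l1* fl/fl (−0.40 ± 0.10, adjusted p 0.004275, lower in 4 of 4 cultures), and missed the threshold in *Atg16l1* ΔIEC (−0.29 ± 0.10, adjusted p 0.0362, overlapping groups). The *Tfam* call in *Atg16l1* fl/fl was lost in 7 of 20 leave-outs, those without untreated culture 3 or 4, treated culture 2 or 4, either *Atg16l1* fl/fl line or the second *Atg16l1* ΔIEC line. Between genotypes it differed by 0.11 ± 0.10 without IL-22 (adjusted p 0.479) and 0.22 ± 0.10 with it (adjusted p 0.101), with overlapping groups in both. *Polrmt*, the mitochondrial RNA polymerase, and *Lrpprc*, which stabilises mitochondrial messenger RNA, were called in no comparison (smallest adjusted p 0.0997 and 0.0470, edgeR). *Ppargc1a*, a coactivator of mitochondrial biogenesis, was at 47.0 to 56.2 CPM in the 8 *Atg16l1* fl/fl cultures and at 14.5 to 28.1 CPM in the 8 *Atg16l1* ΔIEC cultures. Its log2 fold change between genotypes was −1.18 ± 0.15 without IL-22 (adjusted p 4.761e-05, lower in 4 of 4) and −1.29 ± 0.15 with it (adjusted p 7.814e-06, lower in 4 of 4), and both calls held in 20 of 20 leave-outs.

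Of 19 tested genes of mitochondrial DNA replication and transcription, 3 were lower with IL-22 in *Atg16l1* fl/fl (*Mgme1*, *Tfam* and *Ssbp1*, median of the list −0.37) and 2 in *Atg16l1* ΔIEC (*Mgme1* and *Twnk*, median −0.24). Between genotypes 0 were called without IL-22 (4 at an unadjusted p under 0.05, 0 by DESeq2, median 0.05), and 1 was higher with it (*Rnaseh1*, median 0.11). *Primpol* was higher in the second *Atg16l1* fl/fl line. Of 21 genes of mitochondrial RNA processing and stability, 0 were called for IL-22 in *Atg16l1* fl/fl (5 at an unadjusted p under 0.05, 0 by DESeq2, 2 with the line block), and 1 was higher in *Atg16l1* ΔIEC (*Ptcd1*). Between genotypes 1 was higher without IL-22 (*Rexo2*, 0.74 ± 0.15, adjusted p 0.002021), and with it 3 were higher (*Rexo2* by 0.91 ± 0.15, adjusted p 0.0001655, with *Ptcd1* and *1110008L16Rik*) and 2 lower, *Fastkd1* among them, with a median of 0.14.

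For the ribosome lists, calls over all 12559 tested genes in either direction were 2481 between treated and 1226 between untreated genotypes. For IL-22 they were 2608 in *Atg16l1* fl/fl and 2195 in *Atg16l1* ΔIEC. Of 77 tested proteins of the mitochondrial ribosome, 20 were higher in *Atg16l1* ΔIEC than in *Atg16l1* fl/fl with IL-22 (median 0.25, against 0.01 for all tested genes), led by *Mrpl20* (0.80 ± 0.13, adjusted p 0.0001912) and *Mrpl18* (0.73 ± 0.12, adjusted p 0.0002426). Without IL-22, 2 were higher (*Mrpl20* and *Mrps26*, median 0.18). For IL-22, 6 were lower in *Atg16l1* fl/fl (median −0.15) and 1 in *Atg16l1* ΔIEC (*Mrps9*, median −0.05), and these counts were 11 and 6 with the line block and 1 and 0 by DESeq2, which called 14 between treated genotypes and 2 between untreated ones. Between lines, 3 were lower in the second *Atg16l1* fl/fl line and 0 were called in *Atg16l1* ΔIEC (10 at an unadjusted p under 0.05, 0 by DESeq2). Of 84 tested genes listed by the name of a cytosolic ribosomal protein, 26 were lower with IL-22 in *Atg16l1* fl/fl and 2 in *Atg16l1* ΔIEC (55 and 18 called with the line block, 29 and 10 by DESeq2). The list took in genes only named after such proteins, such as *Rps19bp1*. Between genotypes *Rpl7l1* and *Rps19bp1* were higher and 1 gene lower without IL-22. With it, *Rpl7l1*, *Rpl22l1*, *Rps19bp1* and *Rpl13a* were higher, and these calls are not read as a change of ribosomal proteins.

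Of 32 tested assembly factors of the complexes, 1 was higher and 2 lower with IL-22 in *Atg16l1* fl/fl (*Sco1*, and *Oxa1l* and *Nubpl*), *Sco1* was higher in *Atg16l1* ΔIEC, *Coa6* was higher between genotypes without IL-22, and 3 were higher with it (*Coa6*, *Ndufaf7* and *Ndufaf2*). Between lines, *Cox14* was lower in the second *Atg16l1* fl/fl line and *Cox10* in the second *Atg16l1* ΔIEC line. Of 7 tested regulators of biogenesis, *Esrrg* was lower with IL-22 in *Atg16l1* ΔIEC (−0.91 ± 0.16, adjusted p 0.000217), and 0 were called in *Atg16l1* fl/fl (1 at an unadjusted p under 0.05, 0 by DESeq2, 1 with the line block). Beside *Ppargc1a*, *Gabpa* was higher between genotypes with and without IL-22, and *Nrf1* with it.

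Because ATG16L1 acts in autophagy, receptors and regulators of mitophagy were listed too, with 11 tested. With IL-22, 3 were higher in *Atg16l1* fl/fl (*Sqstm1* by 1.10 ± 0.17, *Tax1bp1* by 0.56 ± 0.09 and *Bnip3* by 0.34 ± 0.09, with adjusted p 4.22e-05, 0.0001389 and 0.005565). In *Atg16l1* ΔIEC, 4 were higher, with *Tax1bp1*, *Bnip3* and *Sqstm1* among them, and *Phb2* was lower. Between genotypes without IL-22, *Fkbp8* was higher and *Bnip3* (−0.61 ± 0.09, adjusted p 0.0001357) and *Optn* were lower, and with IL-22 *Fkbp8* was higher and *Bnip3* lower. Over all 392 tested genes of the lists outside the mitochondrial genome, the interaction called 0 by edgeR (22 at an unadjusted p under 0.05, 0 by DESeq2, and 3 with organoid line as block).

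Cell type markers also moved between groups. The summed level of 10 enterocyte markers, led by *Alpi*, averaged 4115, 1431, 4075 and 1591 CPM in untreated and treated *Atg16l1* fl/fl and untreated and treated *Atg16l1* ΔIEC cultures. The sum of 8 stem cell markers, led by *Slc12a2*, averaged 2104, 1114, 2621 and 1250.0 CPM, and that of 7 goblet cell markers, led by *Fcgbp*, 2748, 2587, 1760.0 and 1324. Goblet cell markers went opposite ways with IL-22: edgeR called 2 higher and 1 lower in *Atg16l1* fl/fl, and 2 higher and 2 lower in *Atg16l1* ΔIEC. *Muc2* (0.96 ± 0.16 and 1.17 ± 0.17, adjusted p 0.0001128 and 3.703e-05) and *Agr2* (0.41 ± 0.09 and 0.78 ± 0.09, adjusted p 0.001078 and 1.492e-06) were higher in *Atg16l1* fl/fl and *Atg16l1* ΔIEC, *Zg16* was lower in *Atg16l1* fl/fl, and *Fcgbp* and *Tff3* were lower in *Atg16l1* ΔIEC. Both enterocyte and stem cell sums were lower with IL-22 in both genotypes. Between genotypes, edgeR called 4 of 7 goblet markers lower in *Atg16l1* ΔIEC without IL-22 and 4 with it, and 0 higher. Paneth markers were lower in 2 and 3 of 6, and enteroendocrine markers in 1 and 3 of 7, with 0 higher. Of 8 stem cell markers, 3 were higher each time (*Olfm4* by 2.04 and 3.04), and 1 and 2 lower. Of 10 enterocyte markers, 1 and 3 were higher, and 2 and 0 lower. The sums of 6 Paneth cell markers, led by *Lyz1*, averaged 3643, 4403, 2651 and 3195 CPM, those of 7 enteroendocrine markers, led by *Chgb*, 497, 608, 319 and 359, and those of 6 tuft cell markers, 2 of them tested and *Il25* never above 3 counts, 15.4, 12.4, 14.6 and 10.6. *Cd14*, the most abundant immune marker, averaged 7.10, 13.0, 11.3 and 22.5 CPM, and was called higher with IL-22 in *Atg16l1* fl/fl (0.91 ± 0.17, adjusted p 0.0004482, 4 of 4 cultures) and *Atg16l1* ΔIEC (1.02 ± 0.15, adjusted p 4.475e-05, 4 of 4), and between treated genotypes (0.79 ± 0.15, adjusted p 0.0005003, 4 of 4). With the cultures of a line summed, only its call for IL-22 in *Atg16l1* ΔIEC was kept.

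Cell type markers also differed between lines, as the members did in *Atg16l1* fl/fl. In the second *Atg16l1* fl/fl line against the first, edgeR called 4 of 7 goblet, 3 of 6 Paneth, 3 of 7 enteroendocrine and 3 of 8 epithelial markers lower, 5 of 10 enterocyte markers higher and 1 lower, and 2 of 8 stem cell and 1 of 2 tested tuft cell markers higher. The summed goblet level was 3344, 3333, 3026 and 3042 CPM in the first *Atg16l1* fl/fl line and 2116, 2197, 2243 and 2038 in the second. In the second *Atg16l1* ΔIEC line, where no member was called, 5 goblet, 3 Paneth, 4 enteroendocrine and 4 epithelial markers were higher, 9 enterocyte markers were lower and 1 higher, 1 stem cell marker was higher, and no tuft cell marker was called (0 at an unadjusted p under 0.05, 0 by DESeq2). The part of cell type makeup in the members' differences, between groups or lines, was not tested.

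RNA that is read out beside messenger RNA was listed as well. *Gm42418*, which overlaps a ribosomal RNA repeat, was at 1751, 8873, 1389 and 2119 CPM in untreated *Atg16l1* fl/fl cultures, 1847, 2193, 2633 and 1899 with IL-22, 1846, 1232, 1263 and 1398 in untreated *Atg16l1* ΔIEC cultures, and 10730, 1762, 1603 and 1439 with IL-22. It stood apart in 1 untreated *Atg16l1* fl/fl culture and 1 treated *Atg16l1* ΔIEC culture, and was called in no comparison. Of the 4 tested genes of this list, *Gm26917* and *Rn7sk* were higher with IL-22 in *Atg16l1* fl/fl and *Gm26917* in *Atg16l1* ΔIEC, and *Rn7sk* was lower in *Atg16l1* ΔIEC without IL-22 (−1.13 ± 0.23, adjusted p 0.001955) and with it (−1.50 ± 0.20, adjusted p 2.552e-05).

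The genes whose pattern was most like that of the members were ranked by Pearson correlation of log2 CPM with the members' mean over 16 cultures, as a description of cultures that share group and line. Among 12547 tested genes outside the mitochondrial genome the median correlation was −0.025, and 95% lay between −0.708 and 0.723. The 5 highest were *Nabp1* (0.925), *Gm29216* (0.920), *Ogt* (0.913), *Xist* (0.907) and *Cdkn1b* (0.902), and the 5 lowest were *Snrpc* (−0.935), *Nedd8* (−0.932), *Psmb3* (−0.914), *Psma7* (−0.913) and *Lman2* (−0.903). *Gm29216*, at 2 to 23 counts, is the near-identical copy of part of *mt-Co1*. Whether its counts hold reads of that member cannot be told. *Nabp1* averaged 48.4, 54.8, 41.3 and 33.1 CPM in the 4 groups, and *Snrpc* 47.0, 43.0, 52.4 and 60.3. *Ogt* averaged 208, 225, 111 and 83.8 CPM, and *Nedd8* 74.3, 73.1, 92.5 and 106.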

How the data were processed

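RNA of 16 organoid cultures was sequenced as paired-end reads. The authors trimmed reads with cutadapt, aligned them with TopHat2 to GRCm38/mm10 and deposited raw counts per gene from HTSeq. The strand setting and annotation release are not given in the sources used here, and the sources name different TruSeq kits. Gene names came from GENCODE (43749 of 49585 identifiers matched with version, 49326 without).

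Genes were kept by filterByExpr (12559), scaled by TMM and fitted by edgeR 4.0.16 (quasi-likelihood) in R 4.3.3, as 4 group means, or as 8 means of line and treatment for the line comparisons. Benjamini-Hochberg adjustment ran over all tested genes, with a threshold of 0.01. The SE is the log2 fold change over the root of F. DESeq2 1.42.0, limma 3.58.1, RLE scaling, scaling from nuclear genes, other filters and thresholds, summed cultures, line as block and leave-outs were tried. Copies were searched with BLAST+ 2.17.0 (at least 95% identity over at least 100 bases). The pipeline was tested on simulated data.

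Of the read records, 38.02 to 40.08% were on no gene, 0.74 to 1.13% ambiguous (median 0.79%), 21.46 to 24.22% not unique, and 0% of low quality or not aligned.

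Pairing was checked by correlating deviations from group means across genes. Cultures of the same line correlated at 0.263 to 0.438 in *Atg16l1* fl/fl and 0.056 to 0.321 in *Atg16l1* ΔIEC, and cultures of different lines at −0.435 to −0.218 and −0.352 to −0.078 (8 pairs each). Deviations cancel out within a group, so the negative values follow in part from the centring and are no separate check.

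The members and lists were chosen with earlier results of these data known. Named genes were the members, the other protein-coding and ribosomal RNA genes of the mitochondrial genome, annotated copies, *Atg16l1*, *Tfam*, *Polrmt*, *Lrpprc*, *Ppargc1a*, at most 4 called genes per list and comparison by smallest p, and the 5 most and 5 least similar genes. *Gm42418* is also on a list, and its high cultures were chosen after its values were seen. The summed level of the immune marker list is not reported here.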

Additional observations from a re-analysis of the deposited data

Results flagged for a closer look

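In 84 groups of 4 cultures, the highest or lowest culture was compared with the others by its gap to the nearest value over the range of the group, and 9 stood apart. Chance marks about 1 in 20 groups. The causes were not tested.

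*Gm42418* stood apart at 8873 CPM in untreated *Atg16l1* fl/fl culture 2 (the others 1389 to 2119) and at 10730 CPM in treated *Atg16l1* ΔIEC culture 1 (the others 1439 to 1762). *mt-Rnr2* was high in that same treated *Atg16l1* ΔIEC culture, at 1025 CPM (the others 457.5 to 539.7), and in untreated *Atg16l1* fl/fl culture 4, at 1262 CPM (the others 907 to 965.4). *mt-Rnr1* was high in untreated *Atg16l1* ΔIEC culture 4, at 401.6 CPM (the others 320.9 to 331.2).

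*mt-Nd5* was high in untreated *Atg16l1* ΔIEC culture 1, at 1329 CPM (the others 1073 to 1115). *Atg16l1* was at 5.965 CPM in treated *Atg16l1* ΔIEC culture 2 (the others 0.2894 to 0.810). *Malat1* was low in untreated *Atg16l1* ΔIEC culture 2, at 35.43 CPM (the others 39.81 to 40.55), and *Neat1* was high in treated *Atg16l1* ΔIEC culture 3, at 158.1 CPM (the others 87.48 to 99.23).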

How the results depend on the processing

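Of the log2 fold changes of named genes, 764 values under alternatives other than leave-outs and 1499 under leave-outs counted as the same. For members this can include a change of sign or call. Medians of members counted as the same in 61 values outside leave-outs. No scaling moved the median of all genes by more than 0.1. The causes of the changes below were not tested.

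Members past the threshold for IL-22 in *Atg16l1* fl/fl (0) became 2 with no filter, 2 with the line block and 1 with limma-voom. Given IL-22, those in *Atg16l1* ΔIEC (3) became 7 with no filter, 6 with the compared groups only, 7 with the block, 0 with the cultures of a line summed and 5 with limma-voom. Between genotypes, summing gave 0 of 3 without IL-22 and 3 of 7 with it. In the interaction (0), no filter gave 7, the block 7 and DESeq2 2. Over all genes, no filter called 2930, 2566 and 80 of 25406 for IL-22 in *Atg16l1* fl/fl, IL-22 in *Atg16l1* ΔIEC and the interaction, the block 3837, 3198 and 56 of 12559, limma-voom 3474 and 2863 of 12559 for IL-22, and the compared groups only 1954 of 11952 for IL-22 in *Atg16l1* ΔIEC. DESeq2 called 11 of 12559 in the interaction. Summing called 635 of 13871 for IL-22 in *Atg16l1* ΔIEC, 10 and 188 between untreated and treated genotypes, and 0 in the interaction.

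Nuclear-encoded subunits past the threshold for IL-22 in *Atg16l1* fl/fl (10) became 27 with the block, 1 when summed, 22 with limma-voom, 5 without the 2 cultures high in *Gm42418* (an alternative chosen after seeing the data) and 27 at adjusted p under 0.05. With IL-22 in *Atg16l1* ΔIEC (2) they became 5 with at least 10 counts in every culture, 8 with the block, 1 when summed, 7 with limma-voom, 5 with DESeq2 and 8 at 0.05. Between genotypes without IL-22 (6) they became 0 when summed and 3 without the cultures high in *Gm42418*. With IL-22 (5) they became 3 with the compared groups only, 2 when summed, 3 with limma-voom and 11 at 0.05. Alternatives for this list were added after the files were seen.

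With all read records as denominator, the members' share in the 4 groups was 0.536, 0.543, 0.410 and 0.247%, and without members that have a near-identical copy it was 0.620, 0.701, 0.573 and 0.380%.

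Direction changed for *mt-Rnr2* with IL-22 in *Atg16l1* fl/fl (0.000508 with RLE, 0.000568 with DESeq2), for *mt-Atp8* there (−0.0191 summed, −0.122 without the cultures high in *Gm42418*) and for *mt-Rnr1* in the interaction (−0.0268 with limma-voom, −0.153 without those cultures). Between *Atg16l1* ΔIEC lines it changed for *mt-Nd6* (0.00554 with the minimum of 10 counts, 0.0152 summed) and, without those cultures, for *mt-Nd6* (0.198), *mt-Nd1* (0.0545), *mt-Nd2* (0.00188) and *mt-Rnr1* (0.168). Calls were lost when summed for *mt-Tp* and *Atg16l1* between untreated genotypes, *mt-Rnr2* between treated genotypes (also with the compared groups only) and *mt-Nd5* between *Atg16l1* fl/fl lines (also with DESeq2).

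Calls were gained with no filter for *mt-Rnr1* and *mt-Rnr2* between untreated genotypes (−0.33 and −0.38) and *Atg16l1* fl/fl lines (0.40 and 0.22), *mt-Rnr1* with IL-22 in *Atg16l1* fl/fl (−0.31), *mt-Rnr2* and *Atg16l1* between *Atg16l1* ΔIEC lines (−0.37 and −1.78), and *mt-Atp8* with IL-22 in *Atg16l1* ΔIEC (−0.61) and in the interaction (−0.66). For IL-22 in *Atg16l1* ΔIEC, the block and the compared groups only each added *mt-Atp8* (−0.62). Further gains are given with *mt-Tp*, *mt-Atp8* and *mt-Rnr1* above. Without the cultures high in *Gm42418*, calls were gained for *mt-Rnr2* (−0.59) with IL-22 in *Atg16l1* ΔIEC, *mt-Rnr2* between untreated (−0.45) and *mt-Rnr1* between treated genotypes (−0.60) and *Atg16l1* between *Atg16l1* ΔIEC lines (−2.08). Leaving out 1 culture or line added, with IL-22 in *Atg16l1* ΔIEC, *mt-Rnr2* without treated *Atg16l1* ΔIEC culture 1 (−0.59), *Atg16l1* without treated *Atg16l1* ΔIEC culture 2 (−2.51), and *mt-Atp8* without either *Atg16l1* fl/fl line (−0.61 and −0.62). It added *mt-Atp8* between untreated genotypes without the first *Atg16l1* fl/fl line (−0.74), *mt-Tp* between *Atg16l1* fl/fl lines without untreated *Atg16l1* fl/fl culture 1 (0.49), and *mt-Rnr2* and *Atg16l1* there without treated *Atg16l1* ΔIEC culture 1 or 2 (0.24 and 0.37). Between *Atg16l1* ΔIEC lines it added *mt-Rnr1* (−0.38) and *mt-Rnr2* (−0.56) without treated culture 2, and *Atg16l1* without treated culture 1 (−2.09).

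For genes outside the mitochondrial genome given with an adjusted p, no alternative changed the direction of a call. Summing the cultures of a line lost most calls between genotypes or with IL-22, and kept those of *Cox7a1* and *Kcnq1ot1* with IL-22 in *Atg16l1* ΔIEC and of *Ndufs3* and *Ppargc1a* between treated genotypes, among others. Over 20 leave-outs, calls were kept in 14 (*Atg16l1* fl/fl) and 19 (*Atg16l1* ΔIEC) for *Bnip3* with IL-22, in 16 for *Bnip3* between treated genotypes, in 15 for *Sqstm1* with IL-22 in *Atg16l1* ΔIEC, in 18 for *Esrrg*, in 17 and 19 for *Rexo2* between untreated and treated genotypes, in 19 for *Mrpl18*, in 18 for *Rn7sk* between untreated genotypes and in 19 for *Kcnq1ot1* in *Atg16l1* fl/fl.

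Leave-outs gave 0 to 7 members past the threshold for IL-22 in *Atg16l1* ΔIEC, 0 to 3 between untreated and 4 to 7 between treated genotypes. Medians between genotypes were −0.51 to 0.16 and −1.34 to −0.76. Shares of all genes are not given. Nuclear-encoded subunits ranged from 2 to 13 for IL-22 in *Atg16l1* fl/fl and 1 to 4 in *Atg16l1* ΔIEC, and from 3 to 12 between untreated and 3 to 8 between treated genotypes. The 10 for IL-22 in *Atg16l1* fl/fl became 4 without untreated culture 1, 3 without untreated culture 2, 6 without treated culture 2, 3 without treated culture 3, 4 without treated culture 4, and 2 and 3 without the first and second line. The 2 for IL-22 in *Atg16l1* ΔIEC became 1 without untreated culture 1, 2 or 4, treated culture 2 or 3 or either line, and 4 without treated culture 1 or either *Atg16l1* fl/fl line. Between untreated genotypes (6) they were 3 without *Atg16l1* fl/fl culture 1 or 2, *Atg16l1* ΔIEC culture 1, 2 or 3, either *Atg16l1* ΔIEC line or the first *Atg16l1* fl/fl line, and 12 without the second. Between treated genotypes (5) they were 3 without *Atg16l1* fl/fl culture 1 or 2, *Atg16l1* ΔIEC culture 2 or 4 or the first line of either genotype, and 8 without the second *Atg16l1* fl/fl line.

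Over leave-outs, *Atg16l1* ranged from −3.02 to 0.48 for IL-22 in *Atg16l1* ΔIEC, −3.19 to 0.29 in the interaction and −7.09 to −3.59 between treated genotypes. *mt-Atp8* ranged from −0.30 to 0.25 for IL-22 in *Atg16l1* fl/fl, −0.74 to 0.33 between untreated genotypes, −1.41 to −0.27 between treated ones and −0.0471 to 0.10 between *Atg16l1* ΔIEC lines. For IL-22 in *Atg16l1* fl/fl, *mt-Rnr2* ranged from −0.10 to 0.11 and *mt-Tp* from −0.26 to 0.0496. *mt-Rnr1* ranged from −0.24 to 0.28 in the interaction and −0.38 to 0.16 between *Atg16l1* ΔIEC lines, where *mt-Co1* ranged from −0.0255 to 0.12, *mt-Nd1* from −0.19 to 0.0509, *mt-Nd4* from −0.20 to 0.0284 and *mt-Nd6* from −0.17 to 0.19.

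The block applies only to IL-22 effects and the interaction, and limma-voom with line correlation not to line comparisons. Each genotype had 2 lines, so comparisons between genotypes rest on few lines. *mt-Nd3*, *mt-Co2* and *mt-Co3* had too few counts to compare, and where reads without a unique alignment come from is not in the table.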
